A study of Mus musculus with 11 samples.

Results

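The 9 genes described here, Drd1, Drd2, Ppp1r1b, Adora2a, Rgs9, Pde10a, Rasd2, Gpr6 and Scn4b, are abundant in medium spiny neurons, the projection neurons that make up most of the striatum. They were chosen by symbol from the 24411 genes counted, and all 9 had a row in every library. The striatum lies beneath the corpus callosum, the sheet of myelinated axons linking both hemispheres, so their level in a callosum sample serves as a check of what tissue the dissection held. Each gene is given in every callosum library and in the other material of the study.

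The study sequenced RNA from corpus callosum dissected from mice aged 8 to 10 weeks, and from primary neurospheres, floating colonies raised from stem and progenitor cells of the subventricular zone of such mice. There were 3 wild-type callosum libraries, 2 callosum libraries labelled Bmal1-/-, 3 wild-type neurosphere libraries and 3 neurosphere libraries labelled Bmal1-/-. Bmal1 (gene symbol Arntl) encodes a transcription factor that drives the circadian clock together with CLOCK, and the labels give a homozygous knockout, naming no Cre driver, strain or sex. Neurospheres of both genotypes had been kept for 1 week with EGF at 20 ng/ml and heparin at 2 ug/ml. No label says whether replicate libraries are separate animals, cultures or pools. The p-values therefore measure only how these libraries vary, which may be technical.

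Medium spiny neurons release GABA and fall into a pair of classes. Direct-pathway neurons carry the dopamine D1 receptor (Drd1), which raises cAMP, and project straight to the output nuclei of the basal ganglia. Indirect-pathway neurons carry the dopamine D2 receptor (Drd2), which lowers cAMP, and with it an adenosine receptor (Adora2a) and the orphan receptor GPR6, both of which raise cAMP. Both classes use DARPP-32 (Ppp1r1b), an inhibitor of protein phosphatase 1 that protein kinase A switches on, the cyclic nucleotide phosphodiesterase PDE10A, the G protein regulator RGS9, the small GTPase Rhes (Rasd2) and the sodium channel beta4 subunit (Scn4b). The cell bodies of these neurons lie in the striatum and not in the callosum.

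In GRCm38.p6 (the same assembly as mm10) the genes lie apart, on 6 chromosomes. By RefSeq, Drd1 occupies chr13:54051183-54055658 on the minus strand, Drd2 chr9:49340360-49408177 (plus), Adora2a chr10:75316877-75334792 (plus) and Gpr6 chr10:41069977-41072290 (minus). Ppp1r1b occupies chr11:98348406-98357796 (plus), Pde10a chr17:8525187-8986648 (plus), Rgs9 chr11:109225348-109298181 (minus), Rasd2 chr8:75213944-75224113 (plus) and Scn4b chr9:45138624-45154155 (plus). Counts were given per gene and ignored strand. Ppp1r1b shares 460 exon bases with 1700003D09Rik on the opposite strand, and its count was 78.7% of what strand-specific counting gave on both strands together (77.2% to 79.1% per callosum library). Part of its reads was therefore not counted, a share that varied little between libraries. For the other 8 genes that figure was 100%.

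Promoters are shown for a pair of genes as description, and whether they bear on the levels was not tested. The RefSeq table (GRCm38.p6) held 7 of the 9, Drd1, Drd2, Rgs9, Pde10a, Rasd2, Gpr6 and Scn4b, and lacked Ppp1r1b and Adora2a. The 250 bases before the first listed start were searched on both strands for CACGTG, the E-box that CLOCK and BMAL1 bind, for TGACGTCA, the cAMP response element, and for the GC box GGGCGG, which reads on the opposite strand as CCGCCC. No motif overlapped another in these windows. The E-box was in 0 of the 7 windows and in 6.05% of 27025 promoters of the same length. The GC box was in 3 (Drd2, Rgs9 and Pde10a) against 32.9% of all promoters. The table lists 2 starts each for Drd1 and Pde10a, and those of Pde10a lie well inside the locus given above. In the windows of the other starts, that of Drd1 held a GC box and that of Pde10a held none of the motifs, so the count of 3 depends on the start used. The cAMP response element was in 1, that of Gpr6, against 1.62%. The Gpr6 window (chr10:41072291-41072540, minus strand) is printed because it alone held TGACGTCA, from 78 to 71 bases before the start, shown in capitals. The Rasd2 window (chr8:75213694-75213943, plus strand) is printed because Rasd2 had the lowest adjusted p between genotypes. It held none of the motifs, and its GC content was 75.2%, against 58.4% in the Gpr6 window and a median of 52% over all promoters.
Gpr6: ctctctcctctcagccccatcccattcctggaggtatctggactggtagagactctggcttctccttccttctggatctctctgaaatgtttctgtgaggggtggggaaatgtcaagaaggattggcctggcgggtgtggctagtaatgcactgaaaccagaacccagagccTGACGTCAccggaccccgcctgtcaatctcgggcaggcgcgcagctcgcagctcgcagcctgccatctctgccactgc
Rasd2: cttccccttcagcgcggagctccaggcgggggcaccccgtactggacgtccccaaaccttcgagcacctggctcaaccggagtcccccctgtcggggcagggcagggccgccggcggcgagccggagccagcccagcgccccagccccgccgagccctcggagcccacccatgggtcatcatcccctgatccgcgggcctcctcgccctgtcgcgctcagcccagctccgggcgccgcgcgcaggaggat

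Sequencing depth was even, at 17450270 to 19717848 gene counts per library, so 3 counts, the limit that a count of 0 allows, correspond to 0.152 to 0.172 CPM (counts scaled to a common library size). Unmapped reads took 7.77% to 8.46% in callosum and 13.7% to 22.6% in neurospheres, the highest in replicate 1 of the neurospheres labelled Bmal1-/-, which also stood furthest from its group. Myelin genes summed to 22388 to 34753 CPM in callosum and to 1531 to 2579 CPM in neurospheres, and stem and proliferation genes to 134 to 195 CPM and 1778 to 3080 CPM. Arntl itself stood at 39.3, 35.8 and 32.5 CPM in the wild-type callosum libraries and at 32.3 and 40.3 CPM in those labelled Bmal1-/- (log2 fold change 0.03 ± 0.14 SE, edgeR adjusted p = 0.943). It did not fall in the neurospheres either (log2 fold change -0.01 ± 0.17, adjusted p = 0.983). A single count per gene cannot show the loss of part of it, and the labels do not say which part was deleted, so the genotype is given throughout as labelled.

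Every callosum library held at least 81 counts of each of the 9 genes. Levels are CPM on library sizes scaled by TMM over the 11 libraries. Per kilobase of exon, Ppp1r1b and Rasd2 stood highest, with means in wild-type callosum of 282 ± 145 and 142 ± 63.3 CPM per kb (SD, n = 3). Scn4b (53.7 ± 26.0), Adora2a (34.9 ± 22.3), Rgs9 (32.3 ± 18.4), Drd2 (25.1 ± 18.3), Pde10a (18.6 ± 11.3) and Gpr6 (13.6 ± 7.75) followed, and Drd1 was lowest at 3.78 ± 2.51 CPM per kb. From Scn4b down to Gpr6, each neighbour in that order differed by less than the SD of either. The libraries labelled Bmal1-/- had Ppp1r1b (179 ± 14.8 CPM per kb, SD, n = 2) and Rasd2 (53.0 ± 4.28) first and Drd1 (2.09 ± 0.17) last as well. In bulk tissue, fewer striatal cells and less RNA of a gene per cell cannot be told apart.

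Both dopamine receptor genes differed widely between libraries. Drd1 stood at 6.54, 23.99 and 10.7 CPM in wild-type callosum replicates 1, 2 and 3, against 7.13 and 8.01 CPM in both libraries labelled Bmal1-/-. Wild-type replicate 1 was the lowest of the 5 and replicate 2 the highest, so the groups overlapped. Drd2 stood at 23.1, 115 and 54.0 CPM in the wild type against 17.3 and 33.7 CPM in the labelled Bmal1-/- libraries. Its wild-type replicate 2 was 4.97 times replicate 1, the widest gap of the 9 genes, and the groups overlapped again.

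The other receptors of indirect-pathway neurons ranked the 5 libraries as Drd2 did. Adora2a stood at 46.3, 181 and 93.7 CPM in the wild type against 31.2 and 55.9 CPM. Gpr6 stood at 11.8, 39.2 and 22.0 CPM against 5.66 and 12.8 CPM. In both, replicate 2 labelled Bmal1-/- was above wild-type replicate 1, so the groups overlapped, and replicate 1 labelled Bmal1-/- was the lowest of the 5 libraries. Gpr6 differed most between the 2 libraries labelled Bmal1-/-, by 2.27 times.

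Ppp1r1b, the most abundant of the 9, stood at 423, 1270.2 and 784 CPM in the wild type against 492 and 554 CPM in the labelled Bmal1-/- pair. Both of the latter lay above wild-type replicate 1. The regulator Rgs9, which speeds the shut-off of inhibitory G proteins in these cells, stood at 105, 335 and 179 CPM against 100.5 and 129 CPM, with overlap.

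The groups did not overlap for the remaining 3 genes. Pde10a, which breaks down cAMP and cGMP, stood at 129.9, 405 and 184 CPM in the wild type against 83.5 and 113 CPM in the labelled Bmal1-/- pair. Rasd2 stood at 293, 679 and 385 CPM against 159 and 178 CPM. Scn4b, which shapes the resurgent sodium current, stood at 159, 411 and 233 CPM against 129 and 109 CPM, and was the only member lower in replicate 2 than in replicate 1 of that genotype. Non-overlap with both labelled Bmal1-/- libraries below all wild-type libraries was met by 3 of 9 members and by 18.7% of the 14198 genes tested.

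**Figure D1:**
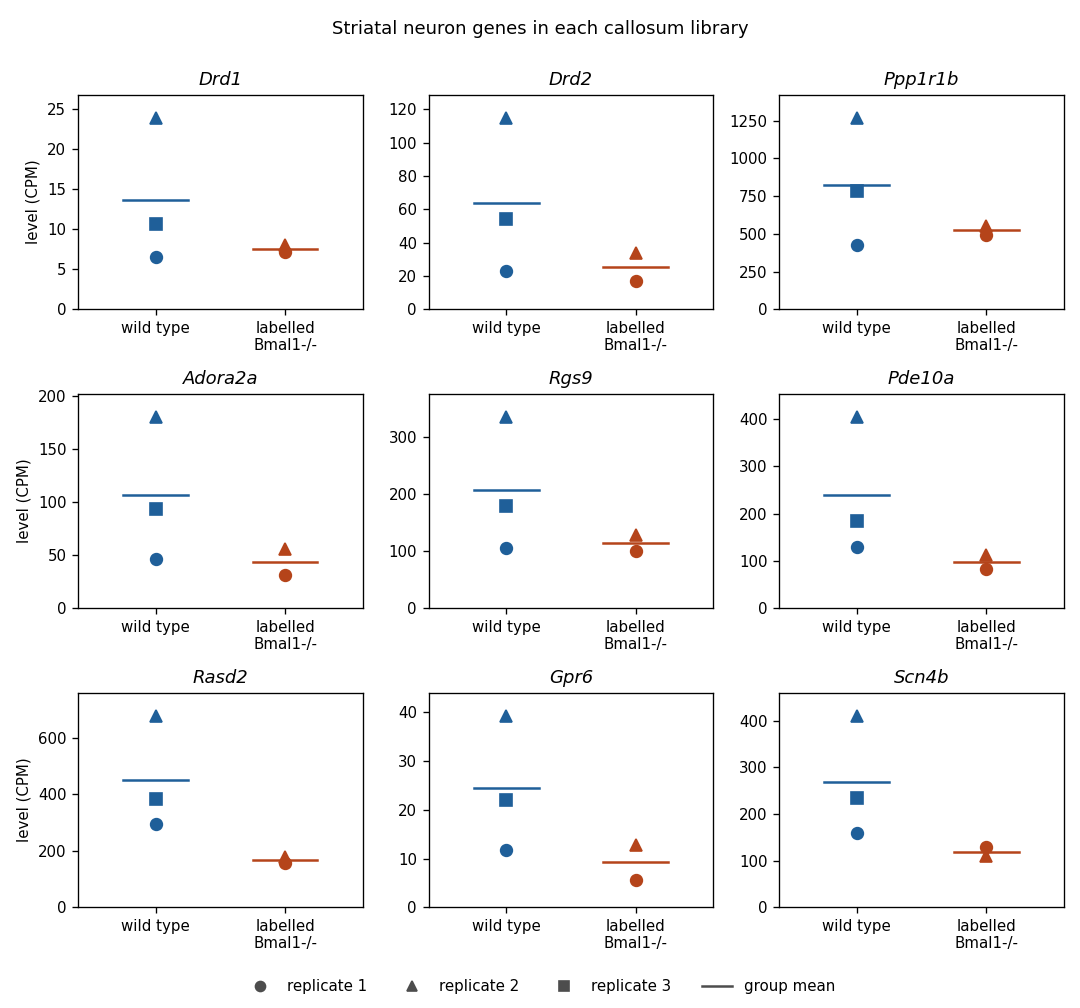
Level of each of the 9 genes in CPM (linear axis from 0) in the 3 wild-type callosum libraries and the 2 labelled Bmal1-/-, with the shape marking the replicate and the line the group mean. Wild-type replicate 2 is the highest and wild-type replicate 3 the second highest in all 9 panels, and the 2 groups are apart only for Pde10a, Rasd2 and Scn4b.

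The order of the libraries was shared by all members at its upper end. Wild-type replicate 2 was the highest and replicate 3 the second highest for 9 of 9 genes. The lowest library was replicate 1 labelled Bmal1-/- for 6 genes, wild-type replicate 1 for Drd1 and Ppp1r1b, and replicate 2 labelled Bmal1-/- for Scn4b. Wild-type replicate 2 exceeded replicate 1 by 2.31 times (Rasd2) to 4.97 times (Drd2). The ratio of the wild-type mean to the mean of the libraries labelled Bmal1-/- was 1.58 (Ppp1r1b) to 2.69 (Rasd2). The ratio of wild-type replicate 2 to replicate 1 was therefore larger than the ratio of group means for 8 of 9 genes, all but Rasd2. These measures are unlike, since single libraries spread more than means do.

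This spread was far above that of most genes. The SD of log2(CPM + 0.5) over the 3 wild-type callosum libraries was 0.62 (Rasd2) to 1.15 (Drd2), with a median over the members of 0.84, while the median over the 14198 genes tested was 0.15. Rasd2, the member with the smallest SD, exceeded 98.1% of those genes. All 9 members were at least 2 times higher in wild-type replicate 2 than in replicate 1, as were 255 of the 14198 genes (1.80%).

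Between genotypes, all 9 genes were lower on average in the callosum labelled Bmal1-/-, but none passed the test. The median log2 fold change of the 9 was -1.28, against -0.01 over the 14198 genes tested, of which 50.9% were below 0. With edgeR's quasi-likelihood test, 0 of 9 had an adjusted p under 0.05, where 129 of all genes did (0.909%, 74 higher and 55 lower). DESeq2 and limma-voom also called 0 of 9. Rasd2 and Scn4b had an unadjusted p under 0.05, as did 13.9% of all genes.

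Among the receptors, Gpr6 had a log2 fold change of -1.39 ± 0.63 (SE, adjusted p = 0.410), Drd2 of -1.32 ± 0.79 (0.513), Adora2a of -1.29 ± 0.66 (0.459) and Drd1 of -0.85 ± 0.56 (0.541). The libraries of all 4 overlapped between genotypes. Among the signalling proteins, Rasd2 had the largest estimate and the smallest error, -1.42 ± 0.38 (adjusted p = 0.221), which is a level 2.67 times lower. Pde10a stood at -1.28 ± 0.56 (0.410) and Scn4b at -1.16 ± 0.42 (0.332). Rgs9 (-0.84 ± 0.53, 0.535) and Ppp1r1b (-0.65 ± 0.46, 0.575) had the smallest estimates.

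The size of these differences depended on which library was left out, and most on wild-type callosum replicate 2. Without it, the median log2 fold change of the members was -0.65 in place of -1.28, and 9 of 9 stayed below 0. Drd1 then stood at -0.16 ± 0.26, Ppp1r1b at -0.19 ± 0.29 and Rgs9 at -0.29 ± 0.26. Rasd2, at -0.99 ± 0.15, was the 1 member called without that library (edgeR adjusted p = 0.0404), where 73 of 14010 genes were. Its SE was 0.15 in place of 0.38. Over 108 alternative results for single members, this call was among 2 that passed the threshold. Leaving out replicate 1 labelled Bmal1-/-, the library with the lowest level of most members, gave a median of -0.91. The other omissions made the median difference larger. It was -1.57 once wild-type replicate 1 was dropped, and 9 of 9 members then had an unadjusted p under 0.05 by edgeR. So did 15.9% of the 14098 genes tested in that fit, and 0 members were called. Dropping wild-type replicate 3 gave -1.38. In callosum labelled Bmal1-/-, dropping replicate 2 gave -1.49.

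**Figure D2:**
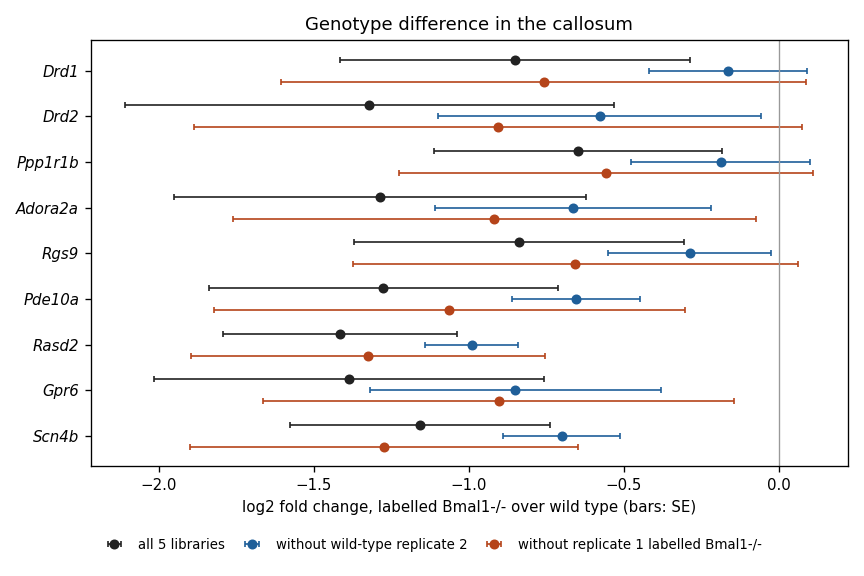
Log2 fold change of each gene between callosum labelled Bmal1-/- and wild-type callosum (points) with its SE (bars), for all 5 libraries and without each of 2 libraries in turn. All points lie left of 0, and without wild-type replicate 2 Drd1, Ppp1r1b and Rgs9 come within 0.29 of 0 while Rasd2 stays at -0.99. Omissions that made the median difference larger are not shown.

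The proportions among the members varied less than their sum, which was 1199 to 3459 CPM in the wild-type libraries and 1025 to 1193 CPM in those labelled Bmal1-/-. Ppp1r1b made up 35.3%, 36.7% and 40.3% of that sum in wild-type replicates 1 to 3, and 48.0% and 46.4% in those labelled Bmal1-/-. Rasd2 made up 24.5%, 19.6% and 19.8%, and 15.5% and 14.9%. The share of Ppp1r1b was higher and that of Rasd2 lower in both libraries labelled Bmal1-/- than in any wild-type library. Each library's level was also divided by the geometric mean of the 9 genes in that library, and Drd1, Ppp1r1b and Rgs9 were then higher in both libraries labelled Bmal1-/- than in all wild-type libraries. For Ppp1r1b this ratio was 6.46, 5.94 and 7.01 against 9.91 and 8.16. For Rasd2 it was 4.48, 3.17 and 3.44 against 3.20 and 2.62, so on this measure the groups overlapped for Rasd2. Drd1, Ppp1r1b and Rgs9 also had the smallest genotype differences of the 9 (log2 fold change -0.85, -0.65 and -0.84). Dividing by the members' own mean raises such genes, so their non-overlap adds no separate result, and no share over all genes was computed. Such ratios within a library show only unequal change, and they were not tested.

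Genes of the indirect and direct pathways were compared per kilobase of exon. The ratio of Drd2 to Drd1 was 5.04, 6.83 and 7.21 in the wild-type callosum libraries and 3.45 and 5.99 in those labelled Bmal1-/-. The ratio of the peptide precursor genes Penk (enkephalin, indirect pathway) to Tac1 (substance P, direct pathway, named after its values were seen) was 20.0, 23.99 and 28.9, and 14.5 and 22.7. Both ratios were highest in wild-type replicate 3 and lowest in replicate 1 labelled Bmal1-/-, and both overlapped between genotypes. Within the indirect pathway, Adora2a stood at 1.57 to 2.00 times the CPM of Drd2 over the 5 libraries and Gpr6 at 0.328 to 0.512 times, so these receptors kept a ratio that varied far less than their level.

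Other genes of medium spiny neurons varied with the members to different degrees. Of 12 further genes used by both classes, 0 were called between genotypes by edgeR, DESeq2 or limma-voom, 2 had an unadjusted p under 0.05, and 12 had a log2 fold change below 0 (median -0.52). Ptpn5, the striatal-enriched tyrosine phosphatase, varied less than the members, at 532, 653 and 524 CPM against 426 and 448 CPM in the labelled Bmal1-/- pair, with no overlap. Arpp21, a cAMP-regulated phosphoprotein gene that cortical neurons also express, stood at 534, 519 and 530 CPM against 486 and 487 CPM, again with no overlap but with its highest level in wild-type replicate 1. These 2 are the most abundant of the 12.

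Of 8 further direct-pathway genes, 0 were called by any of the 3 tools, 5 had an unadjusted p under 0.05 and 7 had a log2 fold change below 0 (median -0.85). Chrm4, the muscarinic M4 receptor gene, stood at 81.0, 99.99 and 99.4 CPM in the wild type against 64.5 and 76.7 CPM in the labelled Bmal1-/- pair. Foxp2, a transcription factor gene also used by deep cortical neurons, was at 20.8 to 27.0 CPM and at 28.9 and 23.3 CPM, with overlap. Of 5 further indirect-pathway genes, 0 were called by any of the 3 tools, 0 had an unadjusted p under 0.05 and 4 were below 0 (median -0.53). Penk stood at 108, 399 and 212 CPM against 58.8 and 107 CPM, and again wild-type replicate 2 was the highest. The kainate receptor subunit gene Grik3, which other neurons and glia also express, lay at 381 to 435 CPM in all 5 libraries.

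The members signal through dopamine, adenosine and cAMP. Of 34 other genes of that pathway, 32 were tested in callosum, and edgeR and limma-voom called 0 between genotypes, with 5 at an unadjusted p under 0.05, 21 below 0 and a median log2 fold change of -0.11. DESeq2 called 1, Gnb5 (log2 fold change -0.61, adjusted p = 0.0190), the G protein beta subunit that RGS9 binds to be stable. By edgeR it was -0.62 ± 0.15 with an adjusted p of 0.123. It stood at 117, 161 and 129 CPM in the wild type against 79.9 and 94.8 CPM in the labelled Bmal1-/- pair, with no overlap. The 2 most abundant genes of the pathway, Gnao1 and Gnas, encode G protein alpha subunits used in most neurons, and they stood at 1845 to 2004 CPM and 1586 to 1980 CPM. The summed level of the 34 genes was 10658 to 11780 CPM over the 5 libraries, a range of 1.11 times, against 3.37 times for the 9 members. That sum is carried by genes such as Gnao1 and Gnas, and some genes of the list varied with the members. Gng7, a G protein gamma subunit gene, stood at 345, 834 and 476 CPM in the wild type against 256 and 348 CPM, Gnal, the olfactory-type G protein alpha subunit gene also used in the striatum, at 125, 270 and 161 CPM against 132 and 144 CPM, and the phosphodiesterase gene Pde7b at 22.4, 52.3 and 28.6 CPM against 12.3 and 18.5 CPM. All 3 were highest in wild-type replicate 2, and the groups overlapped for Gng7 and Gnal. Adcy5, the main adenylyl cyclase of the striatum, followed the members in part (397, 797 and 550 CPM, and 337 and 418 CPM). These 4 genes were named after their values were seen. Adcy5 and Pde1b also belong to the list of further genes used by both classes, so the lists are not separate.

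Neuron genes at large did not share the pattern. Summed over 10 general neuron genes, led by Thy1 and Syn1, the level was 8981 to 11929 CPM in the wild-type and 10675 to 12559 CPM in the labelled Bmal1-/- callosum libraries, and 0 of 10 genes were called by the 3 tools or had an unadjusted p under 0.05 (median log2 fold change 0.04). It was lowest in wild-type replicate 2, where the members were highest. Cortical projection neuron genes, led by the vesicular glutamate transporter gene Slc17a7, summed to 3957 to 4977 CPM and 4687 to 5778 CPM, with 0 of 10 called by the 3 tools, 3 at an unadjusted p under 0.05 and a median of -0.01. The 3 GABA neuron genes Gad1, Gad2 and Slc32a1 summed to 533 to 576 CPM and 530 to 533 CPM, and 0 of the 3 were called or had an unadjusted p under 0.05.

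The members as a share of these neuron genes differed by library. The summed CPM of the 9 members was 10.1%, 38.5% and 17.5% of that of the general neuron genes in the wild-type libraries, and 8.17% and 11.2% in those labelled Bmal1-/-. Against the cortical genes it was 24.1%, 87.4% and 39.2%, and 17.7% and 25.5%. Wild-type replicate 1 was below replicate 2 labelled Bmal1-/- in both cortical share and general share. No general or cortical neuron gene was at or under 3 counts in a callosum library.

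**Figure D3:**
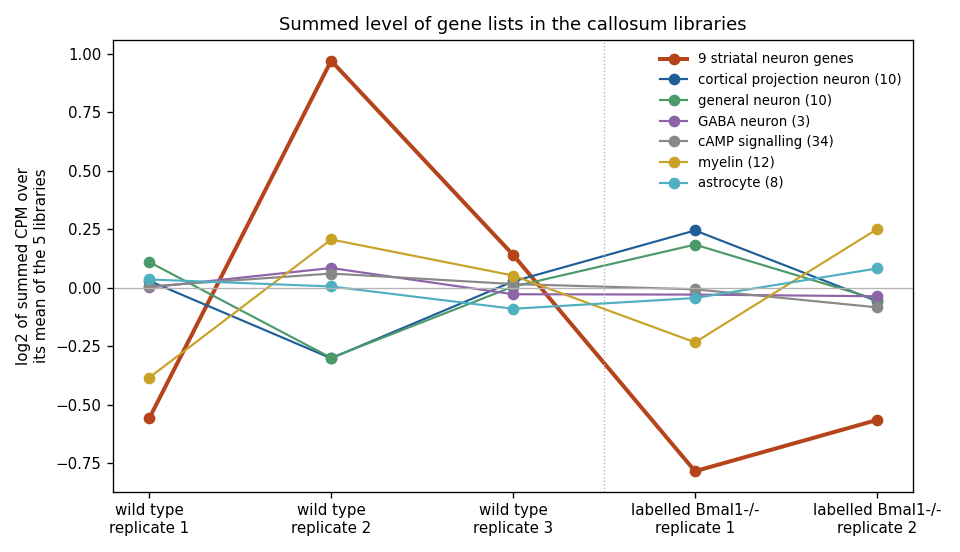
Summed CPM of 7 gene lists in each callosum library as the log2 ratio to the list's own mean over the 5 libraries, with the number of genes in brackets and the dotted line between genotypes. The members range 3.37 times from lowest to highest, while general neuron genes range 1.40 times and are lowest in the library where the members are highest.

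Lists for other tissues next to the callosum were read in the same libraries, and their counts of 0 called hold for edgeR, DESeq2 and limma-voom. Choroid plexus genes summed to 24.4 to 185 CPM in the wild type and to 12.7 to 16.1 CPM in those labelled Bmal1-/-, and Ttr, the main one, stood at 18.6, 39.3 and 171 CPM against 11.8 and 7.59 CPM. Its highest library was wild-type replicate 3 and not replicate 2. Of the 10 choroid plexus genes, 1 to 3 were at or under 3 counts per library, and of the 7 tested 0 were called, 2 had an unadjusted p under 0.05 and 6 were below 0 (median log2 fold change -1.20). Ependymal genes summed to 88.8 to 187 CPM and 113 to 141 CPM, with 0 of 8 called, 0 at an unadjusted p under 0.05 and 8 below 0 (median log2 fold change -0.56). Striatal interneuron genes, led by Sst and Npy, which cortical interneurons also express, summed to 962 to 1029 CPM and 1092 to 1290 CPM, with 0 of 10 called, 3 at an unadjusted p under 0.05 (Chat, Slc18a3 and Npy) and 6 below 0 (median log2 fold change -0.51). That sum is carried by Sst and Npy, and the cholinergic genes of the list, at low levels and named after their values were seen, did not move with it. Chat, which makes acetylcholine, stood at 2.27, 7.29 and 2.19 CPM in the wild type against 1.33 and 1.38 CPM, and Slc18a3, the vesicular acetylcholine transporter gene, at 1.79, 5.04 and 2.60 CPM against 0.768 and 1.31 CPM. Both were highest in wild-type replicate 2, as the members were, with no overlap between genotypes. Hippocampal neuron genes (42.0 to 62.9 CPM and 40.7 to 45.9 CPM) and lateral septum genes (23.4 to 34.9 CPM and 18.4 to 30.5 CPM) were low throughout. The part of these lists in the members' differences was not tested.

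The mean of the members was also used as a covariate beside genotype, to see which calls outside the members depend on it. Of the 129 genes called between genotypes without it, 60 were among the 77 called with it, and the direction was the same for 129 of 129. Their log2 fold changes were 1.02 times as large at the median. The fit with the covariate has 1 residual degree of freedom fewer. The 129 genes were called from the same libraries, and the covariate itself was lower on average in those labelled Bmal1-/-. The kept directions therefore cannot show that these calls are independent of the members. Of the lists for other cell types, the astrocyte list held the 1 gene that edgeR called without the covariate, Aldh1l1, a folate enzyme gene (log2 fold change -0.55, adjusted p = 0.0491). DESeq2 called it too and also Aqp4, the water channel gene, in the other direction (log2 fold change 0.66, adjusted p = 0.00578, against 0.65 and 0.0798 by edgeR), and limma-voom called 0 of the 8 astrocyte genes.

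Genes outside all lists were ranked by how closely their log2(CPM + 0.5), centred on its mean over the 5 callosum libraries, matched the mean of the members. The measure is the root mean square difference, which was 0.11 (Pde10a) to 0.26 (Gpr6) for the members and 0.75 at the median over 10396 genes with a mean of at least 5 CPM. Each member is part of the mean it is compared with, which lowers its own value. A flat gene would have 0.73. The 7 most similar genes were Syndig1l (0.12), Car12 (0.13), Kcna5 (0.14), Cd4 (0.14), Rasgrp2 (0.17), Prkch (0.19) and Lrrc10b (0.20). Syndig1l, a membrane protein gene known for its striatal expression, stood at 99.2, 397 and 185 CPM in the wild type against 80.5 and 126 CPM in the labelled Bmal1-/- pair. Rasgrp2, which encodes an activator of Rap GTPases, stood at 54.5, 135 and 76.4 CPM against 41.8 and 57.6 CPM. Cd4, the T cell coreceptor gene, stood at 12.9, 53.0 and 25.02 CPM against 9.15 and 15.0 CPM. The other 4 include a carbonic anhydrase (Car12), a potassium channel (Kcna5) and a protein kinase C (Prkch). All 7 peaked in wild-type replicate 2 and were lowest in replicate 1 labelled Bmal1-/-.

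**Figure D4:**
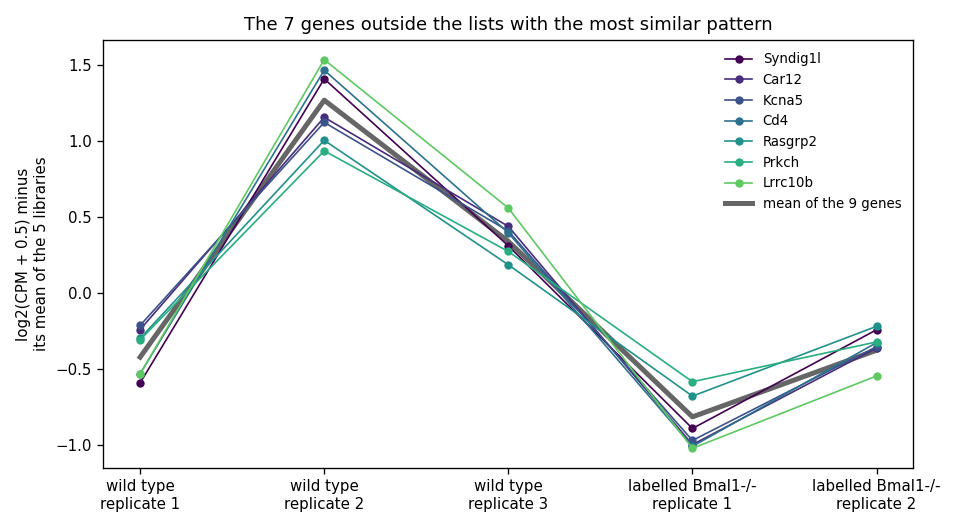
Centred log2(CPM + 0.5) of the 7 most similar genes outside the lists (thin lines) and the mean of the 9 members (thick line) in the 5 callosum libraries. Every line peaks in wild-type replicate 2 and is lowest in replicate 1 labelled Bmal1-/-, as the ranking selects.

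The same measure was read over list genes with at least 5 CPM. The medians of the 3 lists of further medium spiny neuron genes lay between the members and a flat line. Those of the lists of other neurons lay near or beyond it. The median root mean square difference was 0.40 over the 12 further genes of both classes, 0.48 over the 6 direct-pathway and 0.46 over the 5 indirect-pathway genes with at least 5 CPM. It was 0.87 for the 10 cortical, 0.85 for the 10 general neuron genes, 0.71 for the 3 GABA neuron genes and 0.80 for the 5 striatal interneuron genes with at least 5 CPM. The interneuron genes under that level, at means of 0.67 to 2.89 CPM, lay nearer the members. They were Slc18a3 (0.16), Lhx8 (0.25), Nkx2-1 (0.26), Chat (0.30) and Slc5a7 (0.54), so the 0.80 does not hold for the whole list. Slc35d3, a direct-pathway gene named after its value was seen, lay at 0.06, closer to the mean of the members than any member.

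In neurospheres the 9 genes fell into a group that was nearly absent and a group that was plainly counted. Drd2 had 2 counts in total in the 3 wild-type libraries and 1 in the other 3, labelled Bmal1-/-, Gpr6 had 1 and 2, Scn4b 8 and 11, and Drd1 20 and 20. Drd1 lay at 0.18 to 0.46 CPM per library, or 4 to 10 counts. Ppp1r1b was low, at 2.07 to 3.73 CPM. The other 4 were expressed in all 6 libraries. Adora2a stood at 15.6 to 24.2 CPM, Rgs9 at 11.8 to 27.0 CPM and Rasd2 at 5.56 to 13.1 CPM. Pde10a stood at 49.4, 104 and 112 CPM in the wild type against 23.7, 53.9 and 70.7 CPM in the neurospheres labelled Bmal1-/-. Per kilobase of exon, Pde10a (6.87 ± 2.64 CPM per kb, SD, n = 3) and Adora2a (5.99 ± 0.81) led in the wild type and differed by less than the SD of Pde10a, while in those labelled Bmal1-/- Adora2a (6.87 ± 1.47) was above Pde10a (3.85 ± 1.85) on average.

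Between genotypes in neurospheres, 5 of the 9 passed the filter on low counts (Ppp1r1b, Adora2a, Rgs9, Pde10a and Rasd2) and 0 of the 5 were called by edgeR, none of them with an unadjusted p under 0.05. The background is 1 gene called of 13968 (0.00716%), and 3.02% of those genes had an unadjusted p under 0.05. Pde10a had the largest estimate, a log2 fold change of -0.84 ± 0.43 (SE, adjusted p = 0.798), and its libraries overlapped. Adora2a was the 1 member estimated as higher, at 0.20 ± 0.22 (adjusted p = 0.798). Ppp1r1b stood at -0.08 ± 0.31 (adjusted p = 0.942).

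Between wild-type materials, all 9 genes were higher in callosum than in neurospheres by edgeR and by DESeq2, where 42.0% of the 14733 genes tested by edgeR were called higher and 43.8% lower. Drd2 rose from 2 counts to 2861 and Gpr6 from 1 to 1086. Counts so near 0 give no usable fold. Scn4b had a log2 fold change of 11.08 ± 0.58 (adjusted p = 9.4e-08), from 8 counts to 11926. Its wild-type neurosphere libraries held 3, 0 and 5 counts, so the size of that fold is loose. It was 10.51 without neurosphere replicate 2 and 11.83 without replicate 3. Ppp1r1b had 8.08 ± 0.48 (2e-07), Drd1 5.52 ± 0.59 (1.4e-05) and Rasd2 5.50 ± 0.35 (3.2e-07). The genes that neurospheres also express differed least, Rgs9 by 3.23 ± 0.38 (2.8e-05), Adora2a by 2.59 ± 0.41 (0.000238) and Pde10a by 1.49 ± 0.42 (0.00821). The call of Pde10a was lost without wild-type neurosphere replicate 1 (1.19, adjusted p = 0.103). Without wild-type callosum replicate 2 its log2 fold change was 0.88, and the call was kept (adjusted p = 0.0332).

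The libraries labelled Bmal1-/- are a separate set of samples for the same contrast. There 8 of 9 genes were higher in callosum by edgeR, where 35.1% of 14883 genes were. Scn4b rose by 9.51 ± 0.34 on the log2 scale (adjusted p = 7.1e-06), Ppp1r1b by 7.51 ± 0.27 (7.1e-06), Drd1 by 4.70 ± 0.36 (5.2e-05), Rasd2 by 4.50 ± 0.28 (2.9e-05) and Rgs9 by 2.71 ± 0.32 (0.000308). Drd2 rose from 1 count to 735 and Gpr6 from 2 to 267. Scn4b had 4, 2 and 5 counts in these neurospheres, so the size of its fold is loose here too. Adora2a rose by 1.10 ± 0.32 (adjusted p = 0.0193), a call lost without replicate 2 of the callosum (0.200) or of the neurospheres (0.0622). Pde10a, at 1.05 ± 0.43, did not pass (adjusted p = 0.0628), and it passed with DESeq2 (0.0177), with RLE size factors (0.0486) and without neurosphere replicate 1 (0.00861) or 3 (0.0240). TMM factors were 1.13 to 1.29 in neurospheres and 0.81 to 0.86 in callosum. On CPM without TMM scaling the wild-type ratios of Adora2a and Pde10a were 4.28 and 1.99, and the ratios in those labelled Bmal1-/- were 1.41 and 1.36.

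**Figure D5:**
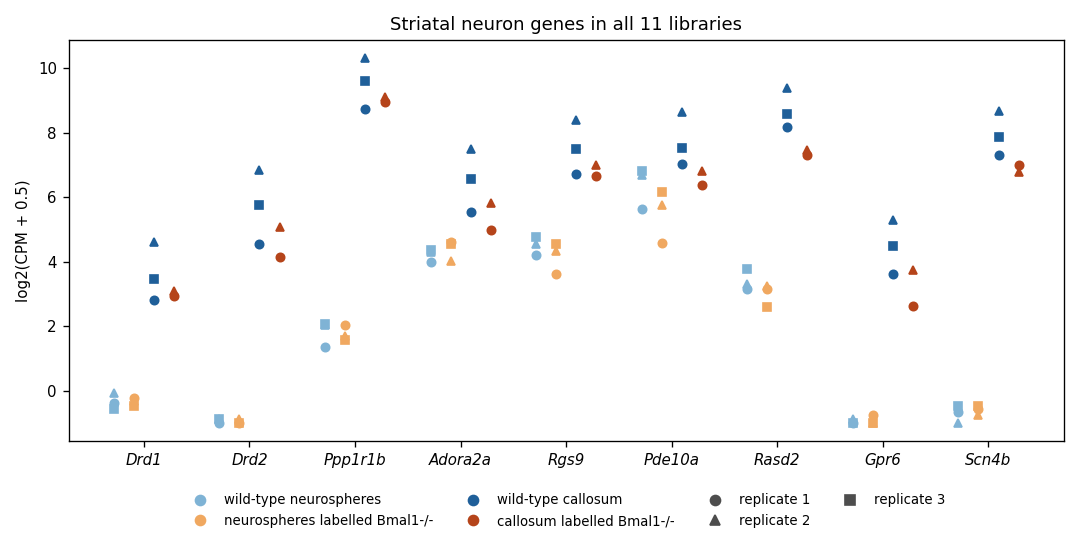
Level of each gene as log2(CPM + 0.5) in all 11 libraries, with the colour giving the group and the shape the replicate. Drd1, Drd2, Gpr6 and Scn4b lie near the lower limit of log2(0.5) in neurospheres, Pde10a, Adora2a and Rgs9 are well above it, and every gene is highest in wild-type callosum replicate 2.

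Not every striatal gene was lower in neurospheres. Of the 12 further genes of both classes, 9 were higher and 3 lower in wild-type callosum than in wild-type neurospheres. The 3 were the transcription factor gene Meis2, the retinoic acid receptor gene Rarb and the diacylglycerol kinase gene Dgkb. The indirect-pathway transcription factor gene Six3 was also lower in callosum (log2 fold change -1.36 ± 0.42, adjusted p = 0.0129), at 64.7 to 77.5 CPM in the wild-type neurospheres and 11.4 to 50.5 CPM in the wild-type callosum. Of the direct-pathway genes, 6 were higher and 1, the developmental transcription factor gene Eya1, lower of 7 tested, and of the indirect-pathway genes 4 were higher and 1 lower of 5. Of the 32 tested genes of dopamine, adenosine and cAMP signalling, 22 were higher and 7 lower.

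The difference between the genotype effects in callosum and in neurospheres was tested in 1 model of all 11 libraries. By edgeR 0 of 9 members were called, where 2 of 15322 genes were (0.0131%). In the same test 2 members, Adora2a and Rasd2, had an unadjusted p under 0.05, as did 4.28% of all genes. Adora2a had an interaction of -1.50 ± 0.60 on the log2 scale (adjusted p = 0.999) and Rasd2 of -1.001 ± 0.45 (0.999), negative meaning lower in callosum labelled Bmal1-/- relative to neurospheres. Rgs9 (-0.53 ± 0.54) and Pde10a (-0.45 ± 0.69) were within 1 SE of 0. All 9 estimates were below 0, as were 54.3% of all genes. Among the members, Drd1, Drd2, Gpr6 and Scn4b had failed the filter in neurospheres, with 1 to 20 counts per neurosphere group. Their signs therefore say little beyond the callosum difference already given. The SE was 6.04 for Drd2, 2.37 for Gpr6, 1.04 for Scn4b and 0.82 for Drd1.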

How the data were processed

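RNA-seq libraries of mouse corpus callosum and of primary neurospheres were made on the BGISEQ-500 platform from poly(A)-selected or rRNA-depleted RNA, the labels' protocols not saying which for any library. Per the submitters' processing notes, reads were aligned with STAR 2.7.1a to mm10. The authors deposited raw counts, 1 per gene for 24411 symbols, and 4 rows of unassigned reads, which entered neither library sizes nor tests (reads outside genes took 8.55% to 16.6% and ambiguous reads 0.772% to 1.40%). Multi-mapping reads were listed at 0. The gene annotation was not given in the sources used here. Counts that ignored strand were used, since 49.6% to 50.8% fell on the first strand.

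The members and all gene lists were chosen with earlier results of these data known. Genes were tested with the quasi-likelihood test of edgeR 4.0.16 (R 4.3.3; TMM, filterByExpr, robust fit, two-sided), and p-values were adjusted by Benjamini-Hochberg over all genes tested. A gene was called at an adjusted p under 0.05. The SE is the log2 fold change divided by the square root of F. The 5 callosum libraries were fitted on their own, as were the 6 neurosphere libraries, the wild-type and the labelled Bmal1-/- libraries across materials, and all 11 for the interaction. With 3 libraries against 2, an exact permutation test of a single gene cannot reach p under 0.05, so none was run. Exon lengths came from GENCODE M21 (95.8% of symbols matched) and positions and promoters from RefSeq GRCm38.p6. Named were all members, of each other list the genes called and the 2 most abundant in callosum, and the 8 genes of most similar pattern outside the lists, of which 1 is not reported here. Replicate pairs of a group differed by far more than sampling noise (chi-square per degree of freedom of 6.85 to 132), so each library was kept. The test was checked on simulated counts drawn for each gene on its own, which does not cover genes that shift together within a library. Alternatives were RLE size factors, DESeq2 1.42.0, limma-voom (limma 3.58.1), other filters, a replicate block, 1 model of all libraries, the member mean as a covariate and each library left out.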

Additional observations from a re-analysis of the deposited data

How the results depend on the processing

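Under 12 alternatives for each of the 9 members in the callosum genotype comparison (108 in all), 106 kept direction and side of the threshold, 0 reversed and 2 passed it, Rasd2 without wild-type replicate 2 and Gpr6 with the replicate number as a block (log2 fold change -1.35, adjusted p = 0.0112). The count of members called was thus 1 with the replicate block and 0 to 1 with each library left out, and their median log2 fold change was -1.57 to -0.65 with each library left out and -1.12 with the block. Whether the numbers pair the samples was not settled. Over genes, deviations of same-numbered libraries correlated at 0.06 and 0.02 in callosum and at -0.01 to 0.33 in neurospheres. Differently numbered neurosphere libraries of opposite genotype correlated at -0.41 to 0.30. Across materials, same-numbered libraries correlated at -0.01 to 0.08 in the wild type and at 0.15 and 0.18 in those labelled Bmal1-/- (only 2 pairs). Deviations in a group of 2 libraries mirror each other, so correlations with callosum labelled Bmal1-/- cannot decide it. The block changed the count of genes called from 129 to 131. That count was 330 with DESeq2, 224 with no filter, 33 with 1 model of all libraries, 77 with the member mean as a covariate and 27 to 192 with each library left out (73 when wild-type replicate 2 was omitted, 27 for wild-type replicate 3 and 49 for replicate 1 labelled Bmal1-/-). The cause was not tested. In neurospheres Ppp1r1b changed sign, within its error, with 3 of 6 libraries left out in turn (range -0.293 to 0.0591). The block also moved Pde10a between materials labelled Bmal1-/- past the threshold (1.48, adjusted p = 7.4e-05) and changed no other member's call. CPM without TMM scaling moved 7 group levels by more than their SD, in callosum labelled Bmal1-/- those of Drd1 (6.15), Ppp1r1b (425), Rgs9 (93.3), Rasd2 (137) and Scn4b (96.7), and in neurospheres those of Ppp1r1b (3.58, labelled Bmal1-/-) and Adora2a (21.1, wild type). Depth limits Drd2 and Gpr6 in neurospheres, with 0 to 2 counts per library, and Scn4b, with 0 to 5.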
